A study of Mus musculus with 17 samples.

Results

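Collagen chain genes encode the polypeptides that wind together into collagen molecules. They were taken as every protein coding gene of the count table whose Gencode vM21 symbol has the form of a collagen chain (Col, a type number, the letter a and a chain number), which gave 44 of the 55450 genes counted. By textbook assignment, 11 of them are fibrillar, 8 belong to basement membranes and their zones, 6 are chains of the beaded filament collagen type VI, 9 are FACITs (fibril-associated collagens with interrupted triple helices), 4 form short chain networks or anchoring fibrils, 4 are transmembrane and 2 fall in none of these classes. Collagens that carry other kinds of symbol, and collagen-like proteins such as complement subunits, are not included.

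The samples were tumors from the peritoneal cavity of 8-week-old female BALB/c mice, each mouse having received 100000 AB12 cells, a murine mesothelioma line, into the peritoneum. After cell injection, 3 untreated tumors were collected at d6, 5 at d10 and 3 at d14, and mice given anti-CTLA4 supplied 3 tumors at d10 and 3 at d14. The antibody (clone 9D9, 200 µg per injection) blocks CTLA4, an inhibitory receptor of T cells, and was injected into the peritoneum. Treated d14 mice received it on d6 and d10, whereas the sources used here do not give the injection days of the treated d10 mice or a control antibody for the untreated mice. All 17 libraries came from separate mice that carried the same line, so replication concerns mice and not tumor lines. Each tumor was sequenced whole, as a mixture of AB12 cells and host cells, and in such bulk samples fewer cells of a type and less RNA per cell cannot be told apart.

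Each collagen chain carries long stretches with glycine at regular intervals, and chains of one type assemble into a triple helix in the endoplasmic reticulum after their prolines and lysines have been hydroxylated. Types I, III and V build the striated fibrils of connective tissue, type IV forms the sheet of the basement membrane, type VI forms microfibrils between them, and FACITs sit on fibril surfaces. In tumors, fibrillar collagen is made mainly by fibroblasts, and basement membrane chains also by endothelial and epithelial cells, whereas mesothelial cells can make both.

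Promoter windows of members whose transcripts moved together are shown first, from 250 bases before to 50 after the RefSeq start site on GRCm38.p6. RefSeq windows were at hand for 35 of the 44 members (38 windows), not for Col1a1, Col2a1, Col4a3, Col5a2, Col9a3, Col12a1, Col14a1, Col22a1 and Col26a1. Capitals mark, on either strand, the TATA motif (TATAAA), the CCAAT box (CCAAT) and the GC box (GGGCGG), and no marked match overlaps another. Col4a1 (chr8:11312777-11313076, minus strand) and Col4a2 (chr8:11312555-11312854, plus strand) start 21 bases apart and run in opposite directions, so their windows share bases read from opposite strands.
Col4a1: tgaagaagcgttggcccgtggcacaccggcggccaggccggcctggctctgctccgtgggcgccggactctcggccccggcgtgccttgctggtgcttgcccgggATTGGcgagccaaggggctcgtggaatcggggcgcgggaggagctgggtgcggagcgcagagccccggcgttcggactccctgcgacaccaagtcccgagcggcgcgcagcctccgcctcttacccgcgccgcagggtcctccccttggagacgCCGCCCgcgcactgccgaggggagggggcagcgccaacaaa
Col4a2: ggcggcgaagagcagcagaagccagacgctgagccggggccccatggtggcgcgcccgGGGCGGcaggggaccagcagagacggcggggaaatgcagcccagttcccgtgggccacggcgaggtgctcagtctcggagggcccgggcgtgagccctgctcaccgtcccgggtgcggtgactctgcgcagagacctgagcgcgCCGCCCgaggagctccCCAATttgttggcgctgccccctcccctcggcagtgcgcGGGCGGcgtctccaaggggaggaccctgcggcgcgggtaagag
Col4a3 and Col4a4 are arranged head to head in the same way on chromosome 1, with starts 72 bases apart, and the window of Col4a4 is chr1:82586800-82587099 on the minus strand.
Col4a4: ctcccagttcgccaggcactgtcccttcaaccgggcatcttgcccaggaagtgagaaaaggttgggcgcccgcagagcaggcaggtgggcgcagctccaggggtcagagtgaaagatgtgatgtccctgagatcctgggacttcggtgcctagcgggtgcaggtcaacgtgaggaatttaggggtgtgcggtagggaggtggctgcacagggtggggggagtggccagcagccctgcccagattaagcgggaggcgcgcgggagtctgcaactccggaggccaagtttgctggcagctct
Col6a1 (chr10:76725995-76726294) and Col6a2 (chr10:76623581-76623880) both lie on the minus strand of chromosome 10 with separate starts.
Col6a1: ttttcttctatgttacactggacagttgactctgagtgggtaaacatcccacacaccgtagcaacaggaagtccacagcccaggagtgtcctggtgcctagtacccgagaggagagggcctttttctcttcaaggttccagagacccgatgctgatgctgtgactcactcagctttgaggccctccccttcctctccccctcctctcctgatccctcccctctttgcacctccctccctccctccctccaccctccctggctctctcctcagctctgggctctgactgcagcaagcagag
Col6a2: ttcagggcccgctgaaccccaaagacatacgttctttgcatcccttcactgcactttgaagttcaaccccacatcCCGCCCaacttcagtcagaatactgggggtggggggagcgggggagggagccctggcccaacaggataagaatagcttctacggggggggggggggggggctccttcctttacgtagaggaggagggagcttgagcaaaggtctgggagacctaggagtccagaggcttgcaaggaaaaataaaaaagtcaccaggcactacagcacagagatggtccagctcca
Of the fibrillar chains with the most transcripts, Col1a2 (chr6:4505368-4505667) and Col3a1 (chr1:45311288-45311587) lie on the plus strand.
Col1a2: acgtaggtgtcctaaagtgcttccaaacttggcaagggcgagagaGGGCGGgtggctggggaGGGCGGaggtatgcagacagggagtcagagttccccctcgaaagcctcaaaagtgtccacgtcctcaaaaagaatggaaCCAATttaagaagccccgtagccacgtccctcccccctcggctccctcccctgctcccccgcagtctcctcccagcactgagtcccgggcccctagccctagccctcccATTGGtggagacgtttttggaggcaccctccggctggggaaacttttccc
Col3a1: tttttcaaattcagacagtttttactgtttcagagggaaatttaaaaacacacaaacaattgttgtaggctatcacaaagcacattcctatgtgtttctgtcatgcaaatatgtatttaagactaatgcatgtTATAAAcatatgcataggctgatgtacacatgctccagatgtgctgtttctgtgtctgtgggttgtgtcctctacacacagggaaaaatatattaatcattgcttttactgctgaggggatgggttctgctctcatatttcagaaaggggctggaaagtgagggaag
Among these windows Col3a1 held a TATAAA and 37.7% G and C bases, whereas the windows of Col4a1 and Col4a2 held 74.0% and 73.7% and no TATAAA. The TATAAA of Col3a1 begins 117 bases before the start site. The mean over all 32851 RefSeq windows was 53.8%. GGGCGG was found in 23 of the 38 member windows (60.5%) and in 35.7% of all windows, CCAAT in 13 (34.2%) and in 37.4%, and TATAAA in 5 (13.2%) and in 13.6%. These matches describe letters in the windows, and no binding was measured.

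Levels are given as normalized CPM, the counts scaled to library size (CPM) with TMM factors over all 17 libraries, and levels of different genes are compared only after division by the length of their merged exons in kb. Col3a1, the sole chain of type III collagen, and Col1a1, the main chain of type I, stood highest, at means over the 17 tumors of 138 and 133 normalized CPM per kb. Col1a2 followed at 61.9 and Col18a1, whose protein is cut to release endostatin, at 61.6. Col1a1, Col1a2 and Col3a1 together made up between 42.5% and 58.8% (median 55.1%) of the summed collagen level per kb in a tumor. By coding length in place of exon length, an alternative added after the data were seen, the first 3 places were unchanged and Col8a1, a chain of short network collagens, took the place of Col18a1 behind them. Of the 44 members, 13 had a mean of at least 100 normalized CPM and 15 a mean under 1. Col10a1, Col9a1 and Col19a1 had at most 3 counts in every tumor. After edgeR's filter on low counts, 34 members were tested in all 5 comparisons, Col26a1 in 2 and the other 9 in none (Col2a1, Col4a6, Col9a1, Col9a2, Col10a1, Col11a1, Col19a1, Col22a1 and Col25a1).

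**Figure D1:**
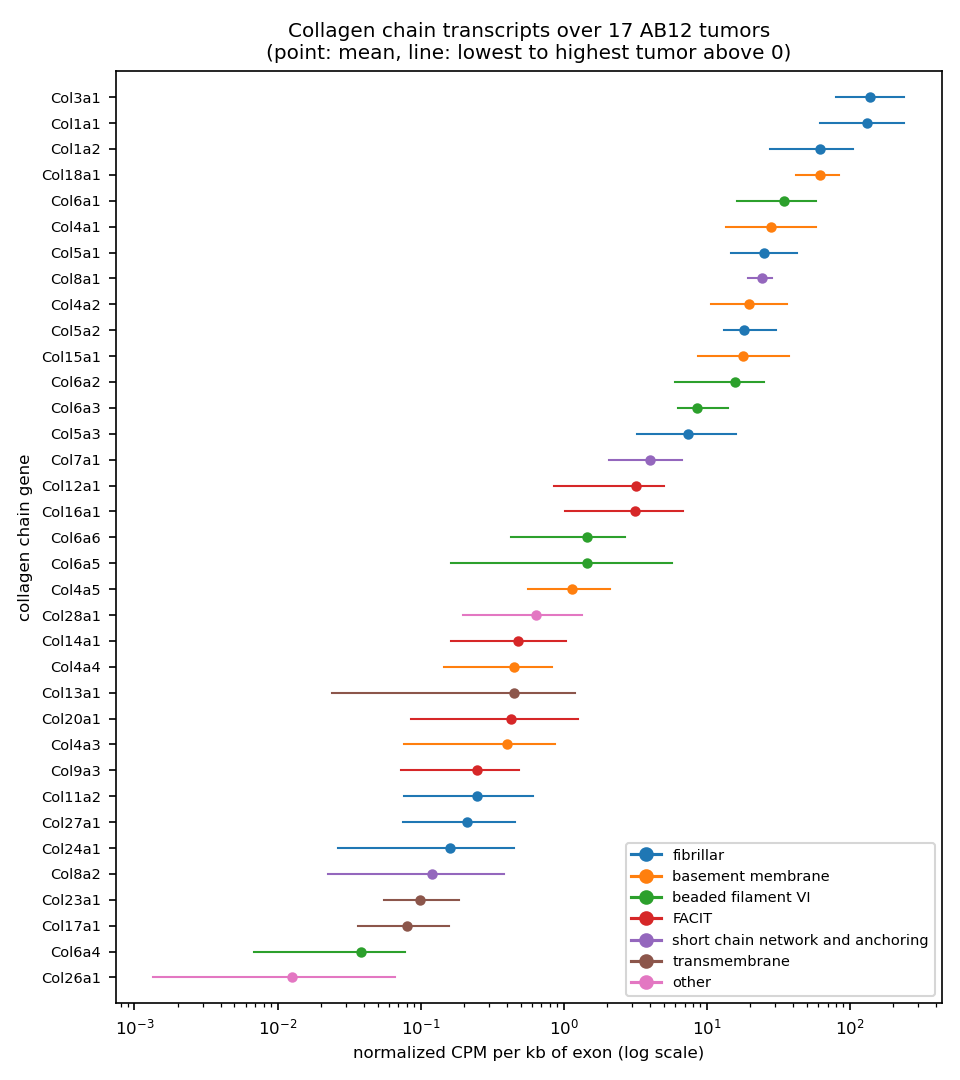
Level of the 35 tested collagen chain genes in normalized CPM per kb of exon on a log axis, with the point at the mean of the 17 tumors, the line from the lowest to the highest tumor above 0, and colors for the classes. Col3a1 and Col1a1 lie highest, at means of 138 and 133, and Col26a1 lowest at 0.0126.

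The libraries held between 46371577 and 96759833 counts, of which collagen chain genes took 0.343% to 0.57% in untreated tumors and 0.637% to 0.903% in treated d14 tumors. Untreated d10 replicates 4 and 5 stood apart from replicates 1 to 3: 7.89% of all genes tested were called between them, and among the members Col6a5 (log2 -1.81), Col20a1 (-1.13) and Col27a1 (-1.0) were called lower in replicates 4 and 5, against 6.08% of all genes called in that direction. The small RNA gene Mir6236, which is no member, had 3387 to 12332 counts at d6 and in d10 replicates 1 to 3, 141 and 176 in replicates 5 and 4, 205 to 1244 in treated d10 tumors and 5 to 24 in all d14 tumors, so libraries also stood apart along the time course, and the part of this in the time comparisons was not tested. The methods speak of more than 1 sequencing project, and the sources used here do not say which libraries each held. Of 9 pancreas acinar markers, 8 were under 1 normalized CPM in every untreated library and every treated d10 library, but the summed level of the 9 was 1950 in treated d14 replicate 1 and 635 in replicate 3, against 3.28 in replicate 2 and at most 2.45 in all other groups. Mesothelial markers summed to between 1890 and 4040, with Msln, Wt1 and Krt19 detected in every tumor, although Pdpn did not exceed 0.0111. Markers of skeletal muscle and Schwann cells summed to at most 2.94 and 0.709 in every library, with Sox10 at most 0.0516 and Cdh19 at most 0.0111. In the chondrocyte list Acan and Sox9 were present, but the sum of that list was set by those 2 of 6 genes and the other 4 stayed under 1.

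The first question was how collagen chain transcripts differ between early, intermediate and advanced tumors. From d6 to d10, 7 of the 34 members tested were called (adjusted p below 0.05 and a fold change above 2), all higher at d10, against 7.45% of all genes called and 4.79% called higher. Without the fold limit 14 members passed, all higher, against 10.5% of all genes, and the median log2 fold change over the 34 was 0.45, compared with 0.03 over all genes. From d10 to d14, 4 members were called higher and 3 lower of 35 tested, against 7.23% of all genes called, 3.78% higher and 3.45% lower, and the median was -0.17. From d6 to d14, 8 were called higher and 2 lower of 34, against 19.0% of all genes called, 10.2% higher and 8.81% lower. Without the fold limit 18 passed higher and 5 lower, against 25.5% and 26.0% of all genes. With d10 replicates 1 to 3 only, 9 members were called from d6 to d10, against 8.78% of all genes, and 5 from d10 to d14, against 11.3%. With replicates 4 and 5 only there were 12, against 16.7%, and 6, against 10.4%. These comparisons share tumors, and each is given with its own values. By class, 7 of 7 basement membrane members tested passed higher from d6 to d14, while 4 of 6 type VI members passed lower and none higher.

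**Figure D2:**
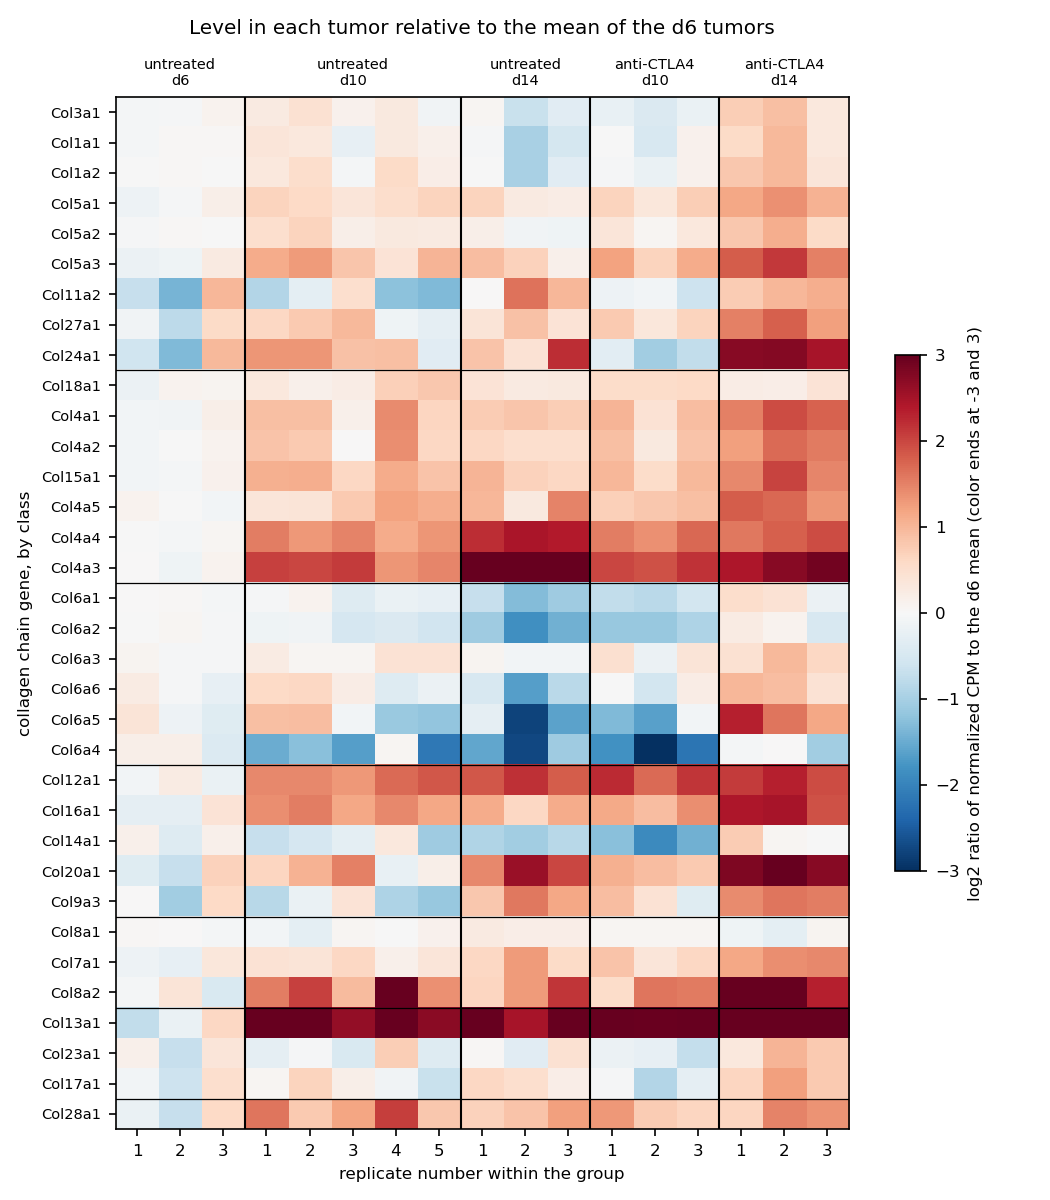
Log2 ratio of normalized CPM in each tumor to the mean of the d6 tumors for the 34 members tested in all comparisons, one column per tumor, with members grouped by class and ordered by level within it. Col4a3, Col4a4, Col12a1 and Col13a1 are higher in every later tumor than in every d6 tumor, and Col6a1 and Col6a2 are lower in every untreated d14 tumor than in every d6 tumor.

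The 7 basement membrane chains tested rose from d6 to d14, Col4a3 and Col4a4 by more than the other 5. Col4a3, a chain known from the glomerular basement membrane and mutated in Alport syndrome, measured 0.845, 0.766 and 0.891 normalized CPM at d6, 3.46, 3.35, 3.60, 2.08 and 2.31 at d10 and 7.67, 8.50 and 8.71 at d14. Its log2 fold change was 1.85 ± 0.26 (SE, adjusted p = 0.0018) from d6 to d10, 1.49 ± 0.21 (SE, adjusted p = 0.0054) from d10 to d14 and 3.33 ± 0.18 (SE, adjusted p = 1.4e-05) from d6 to d14. The 3 groups did not overlap, and the d10 replicates 4 and 5 were the lower ones of their group. Its partner Col4a4, transcribed from the same start region in the other direction, measured 1.62, 1.55 and 1.70 normalized CPM at d6, 4.68, 4.03, 4.57, 3.49 and 4.08 at d10 and 7.56, 8.86 and 8.43 at d14. It was called from d6 to d10 (1.38 ± 0.18 SE, adjusted p = 0.0012) and from d6 to d14 (2.37 ± 0.17 SE, adjusted p = 3.4e-05), and from d10 to d14 it passed just under the fold limit (0.99 ± 0.15 SE, adjusted p = 0.0064). Exons of Col4a3 overlap those of C430014B12Rik by 563 bases on the opposite strand, and the sources used here do not state whether counting used strand. Per kb, the ratio of Col4a3 to Col4a4 was 0.525 to 0.558 at d6, 0.602 to 0.885 at d10 and 1.02 to 1.1 at d14, without overlap between the groups. Both chains stayed far below the common type IV chains, with Col4a3 per kb at 0.00542 to 0.00606 of Col4a1 at d6 and 0.0308 to 0.0353 at d14.

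Col4a1 and Col4a2, the chains of the type IV network of nearly all basement membranes, moved by less. Col4a1 measured 104, 102 and 123 normalized CPM at d6, 204, 205, 122, 294 and 172 at d10 and 186, 194 and 185 at d14. It passed from d6 to d10 (0.88 ± 0.23 SE, adjusted p = 0.029), where d10 replicate 3 lay within the d6 range, and from d6 to d14 (0.80 ± 0.09 SE, adjusted p = 0.00022), where the groups did not overlap. Col4a2 measured 70.5, 73.6 and 79.7 normalized CPM at d6, 134, 129, 75.3, 195 and 115 at d10 and 115, 106 and 106 at d14, with log2 fold changes of 0.82 ± 0.24 (SE, adjusted p = 0.044) and 0.57 ± 0.08 (SE, adjusted p = 0.00056). Neither passed from d10 to d14 (log2 -0.08 and -0.25). Without d10 replicate 3, the d10 rise of Col4a1 was 1.01 and called, and with d10 replicates 4 and 5 only Col4a1 (1.09) and Col4a2 (1.07) were both called. The 2 chains kept a ratio per kb between 1.23 and 1.62 over all 17 tumors, and their exons overlap by 22 bases on opposite strands. Col4a5, the partner of Col4a3 and Col4a4, measured 4.34, 3.99 and 3.79 normalized CPM at d6, 5.22, 5.31, 6.93, 9.38 and 8.63 at d10 and 8.12, 4.95 and 11.3 at d14 and was called from d6 to d14 at 1.02 ± 0.27 (SE, adjusted p = 0.012), a call lost without d14 replicate 3 (0.73) or d6 replicate 3 (0.97). Col15a1, a proteoglycan collagen of basement membrane zones, rose from 55.1, 56.7 and 64.3 at d6 to 119.6, 95 and 90.6 at d14 (0.81 ± 0.12 SE, adjusted p = 0.0007), and Col18a1 by 0.34 ± 0.09 (SE, adjusted p = 0.015). The summed level of 8 endothelial markers was 67.6 to 85.4 normalized CPM at d6, 81.8 to 154 at d10 and 96.6 to 117 at d14, and its part in these differences was not tested.

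Of the 6 type VI chains, Col6a1, Col6a2, Col6a4 and Col6a6 fell from d6 to d14. Col6a1 and Col6a2 encode the short chains that join with a long chain to form the microfibril unit. Col6a2 measured 176, 185 and 173 normalized CPM at d6, 162, 165, 125, 131 and 119 at d10 and 85.5, 49.6 and 66.0 at d14. It fell by 1.07 on the log2 scale from d10 to d14 (-1.07 ± 0.18 SE, adjusted p = 0.008) and by 1.39 from d6 to d14 (-1.39 ± 0.17 SE, adjusted p = 0.00024), with no overlap between the d14 tumors and either earlier group. Without d14 replicate 2, the lowest tumor, the value from d10 was -0.90 and under the fold limit, as it was with d10 replicates 4 and 5 only (-0.91). Col6a1 measured 179, 181 and 169 normalized CPM at d6, 174, 191, 134, 153 and 149 at d10 and 109, 72.0 and 84.9 at d14 and passed in the same comparisons just under the fold limit (-0.86 ± 0.16 SE, adjusted p = 0.0093, and -0.98 ± 0.14 SE, adjusted p = 0.00053). It was called without d14 replicate 1 (-1.04 and -1.15) and, from d6 to d14, without d6 replicate 3 (-1.01).

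The long chain Col6a3 did not pass in any untreated comparison. Its values were 90.1, 83.2 and 83.7 normalized CPM at d6, 102, 88.7, 89.6, 115 and 116 at d10 and 91.0, 80.6 and 80.3 at d14, and the log2 difference from d6 to d14 was -0.01 ± 0.08 (SE, adjusted p = 0.92). Per kb, Col6a2 stood at 2.81 to 3.19 of Col6a3 at d6, at 1.47 to 2.68 at d10 and at 0.885 to 1.35 at d14. The size of this ratio depends on the length used, while its order between tumors does not. Over the 17 tumors, Col6a2 and Col6a3 averaged 15.7 and 8.57 per kb of exon, but 38.5 and 10.4 per kb of coding length. Col6a4, Col6a5 and Col6a6 encode long chains that can take the place of the Col6a3 chain and lie next to each other on chromosome 9. Col6a6 measured 14.5, 12.0 and 10.4 normalized CPM at d6, 18.5, 18.8, 14.3, 9.43 and 10.8 at d10 and 8.81, 3.91 and 7.0 at d14 and fell by 1.13 on the log2 scale from d10 to d14 (-1.13 ± 0.31 SE, adjusted p = 0.032), a call lost without d10 replicate 1 (-1.03), d10 replicate 2 (-1.01), d14 replicate 2 (-0.86) or d14 replicate 3 (-1.17). It also ended with d10 replicates 4 and 5 only (-0.64, adjusted p = 0.16). Col6a4, at 0.667, 0.665 and 0.446 normalized CPM at d6, 0.210, 0.248, 0.190, 0.619 and 0.134 at d10 and 0.202, 0.0900 and 0.282 at d14, was called lower from d6 to d14 (-1.58 ± 0.42 SE, adjusted p = 0.012), and d10 replicate 4 stood far above the other d10 tumors. On the opposite strand, 127 and 162 bases of Col6a4 overlap Gm36993 and Gm47575. Col6a5 ranged widely, at 13.9, 9.60 and 8.28 normalized CPM at d6, 19.7, 20.2, 9.95, 4.87 and 4.65 at d10 and 8.84, 1.55 and 3.45 at d14, and its difference from d6 to d14 (-1.18 ± 0.52 SE, adjusted p = 0.084) did not pass.

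**Figure D3:**
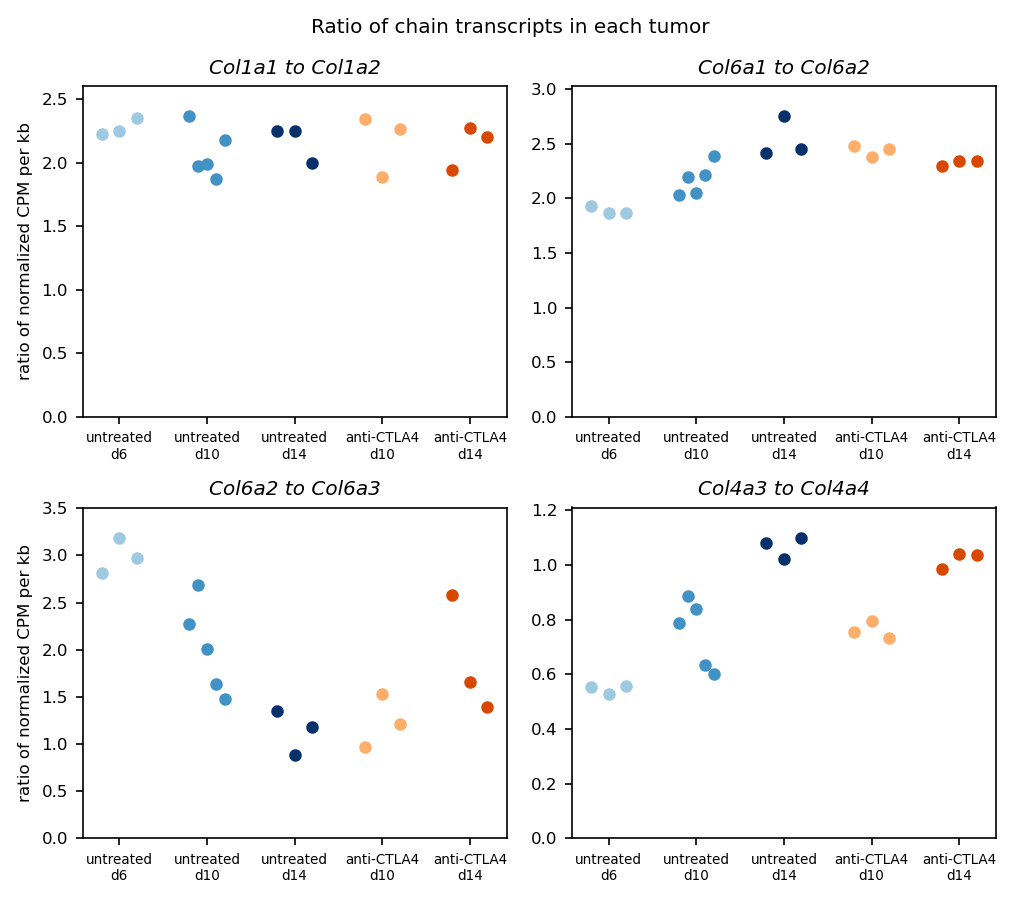
Ratio of normalized CPM per kb of exon between partner chains in each tumor, one point per tumor, for Col1a1 to Col1a2, Col6a1 to Col6a2, Col6a2 to Col6a3 and Col4a3 to Col4a4. The size of each ratio depends on the length used. The ratio Col1a1 to Col1a2 stays between 1.87 and 2.36 in all 17 tumors, whereas Col4a3 to Col4a4 goes from at most 0.558 at d6 to at least 1.02 at untreated d14 and Col6a2 to Col6a3 from at least 2.81 to at most 1.35.

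The major fibrillar chains passed 1 of 9 tests between untreated groups. Col1a1 measured 777, 819 and 821 normalized CPM at d6, 1043, 1006, 678, 991 and 895 at d10 and 787, 407 and 559.8 at d14. Col1a2, the other chain of type I, measured 659.7, 690.4 and 661 normalized CPM at d6, 835, 964, 643, 1002 and 775 at d10 and 663, 343 and 531 at d14. Col3a1 measured 1187, 1219.5 and 1330.0 normalized CPM at d6, 1498, 1723, 1360.1, 1515 and 1151 at d10 and 1290.1, 788 and 992 at d14. Col1a2 passed from d10 to d14 (-0.72 ± 0.22 SE, adjusted p = 0.043), where d14 replicate 1 lay within the d10 range. From d10 to d14 the values of Col1a1 (-0.66 ± 0.21 SE, adjusted p = 0.056) and Col3a1 (-0.50 ± 0.18 SE, adjusted p = 0.07) were also below 0. Untreated d14 replicate 2 was the lowest untreated tumor for all 3 genes. The ratio of Col1a1 to Col1a2 per kb lay between 1.87 and 2.36, but its size depends on the length used. The merged exons of Col1a2 hold 12426 bases against 4116 coding bases, and those of Col1a1 6563 against 4359. Per kb of coding length, the means over the 17 tumors were 200 normalized CPM for Col1a1 and 187 for Col1a2.

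Type V chains, which join the core of type I fibrils and limit their width, rose from d6 to d10 without reaching the fold limit. The log2 fold changes were 0.59 ± 0.11 (SE, adjusted p = 0.0077) for Col5a1, 0.41 ± 0.12 (SE, adjusted p = 0.042) for Col5a2 and 0.98 ± 0.20 (SE, adjusted p = 0.0092) for Col5a3. Col5a3 measured 22.1, 22.7 and 30.2 normalized CPM at d6, 53.8, 60.1, 44.4, 33.1 and 50.9 at d10 and 47.6, 40.0 and 27.6 at d14, and Col5a2 135, 142 and 137 normalized CPM at d6, 196, 219, 156, 168 and 165 at d10 and 156, 129 and 126 at d14. Of the rarer fibrillar chains, Col11a2, a chain of cartilage fibrils, was called higher from d10 to d14 (1.5 ± 0.47 SE, adjusted p = 0.049) at 0.845, 0.524 and 2.75 normalized CPM at d6, 0.751, 1.13, 1.94, 0.584 and 0.552 at d10 and 1.39, 4.23 and 2.76 at d14. The d6 and d14 ranges of this gene overlapped, and the call was lost without any one of d10 replicates 1, 2, 4 and 5 or d14 replicates 2 and 3 (log2 1.06 to 1.55), and with d10 replicates 1 to 3 only (1.14). Col24a1 (0.334, 0.202 and 0.992 at d6, 1.27, 1.27, 0.933, 0.958 and 0.402 at d10 and 0.929, 0.684 and 2.35 at d14) and Col27a1 (1.58, 0.988 and 2.53 at d6, 2.62, 2.93, 3.35, 1.57 and 1.40 at d10 and 2.21, 3.11 and 2.25 at d14) passed in no untreated comparison. The fibroblast and pericyte markers summed to 258 to 284 normalized CPM at d6, 338 to 457 at d10 and 185 to 253 at d14. Of these 10 markers, Thy1 had the highest median over all tumors of the study, at 152 (51.7 to 213), followed by Pdgfra at 59.9. The sum thus leaned on Thy1 and is not a measure of fibroblast number. From d6 to d14 that list went both ways, with 3 markers passing higher and 4 lower, so its sum does not stand for every marker. Leukocyte markers summed to 494 to 539, 598 to 816 and 299 to 563 in the same order of days. Those of adipocytes summed to 36.0 to 117, 36.3 to 76.7 and 15.4 to 28.1. The leukocyte list also went both ways from d6 to d14, with 2 of 7 markers passing higher and 1 lower (25.5% and 26.0% of all genes). The part of all these markers in the fibrillar and type VI values was not tested.

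Among FACITs and the remaining classes, Col12a1 and Col13a1 showed the clearest rise. Col12a1, a long FACIT found on type I fibrils in tissues under load, measured 14.3, 18.1 and 13.1 normalized CPM at d6, 40.8, 41.3, 37.0, 49.4 and 55.1 at d10 and 54.9, 68.8 and 53.5 at d14. It rose by 1.59 ± 0.17 (SE, adjusted p = 0.00044) from d6 to d10 and by 1.98 ± 0.15 (SE, adjusted p = 4e-05) from d6 to d14, and no later tumor overlapped the d6 tumors. Col13a1, a transmembrane collagen of cell adhesion sites, measured 0.111, 0.161 and 0.284 normalized CPM at d6, 2.13, 1.66, 1.16, 2.29 and 1.21 at d10 and 2.04, 1.03 and 1.74 at d14, with log2 fold changes of 3.19 ± 0.41 (SE, adjusted p = 0.001) and 3.11 ± 0.41 (SE, adjusted p = 0.0004). Its d6 values rest on 5, 8 and 14 counts. Col16a1, a FACIT of several connective tissues, measured 6.96, 7.01 and 11.2 normalized CPM at d6, 22.0, 24.1, 18.8, 23.0 and 18.9 at d10 and 18.3, 13.0 and 18.1 at d14 and was called from d6 to d10 (1.37 ± 0.19 SE, adjusted p = 0.0014). From d6 to d14 it passed at 0.99 ± 0.22 (SE, adjusted p = 0.005).

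The other calls concerned genes with few counts. Col8a2, which forms a network collagen with Col8a1, measured 0.133, 0.181 and 0.101 normalized CPM at d6, 0.402, 0.573, 0.266, 1.71 and 0.358 at d10 and 0.215, 0.335 and 0.614 at d14, and was called from d6 to d10 (2.27 ± 0.69 SE, adjusted p = 0.048) and from d6 to d14 (1.5 ± 0.48 SE, adjusted p = 0.028). Leaving out d10 replicate 1 or 2 or any d6 tumor ended the first call (2.09 to 2.51), and leaving out d14 replicate 3 or d6 replicate 1 or 3 ended the second (1.02 to 1.48). DESeq2 (adjusted p = 0.061) and a fit of all 5 groups (adjusted p = 0.088) ended the second as well. Its partner Col8a1, far more abundant per kb, measured 193, 189 and 179 normalized CPM at d6, 175, 152, 195, 186 and 203 at d10 and 224, 213 and 216 at d14, and passed from d6 to d14 at 0.24 ± 0.07 (SE, adjusted p = 0.022). Col28a1, a collagen known from peripheral nerve, measured 1.36, 0.968 and 2.35 normalized CPM at d6, 4.73, 2.68, 3.56, 6.57 and 2.73 at d10 and 2.53, 2.84 and 3.65 at d14 and was called from d6 to d10 (1.40 ± 0.39 SE, adjusted p = 0.035), a call lost without d10 replicate 1 (1.33), d6 replicate 1 (1.31) or d6 replicate 2 (1.14). The Schwann cell markers Sox10 and Cdh19 were at or near 0 in these tumors.

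Col9a3, a chain of the cartilage FACIT type IX, measured 0.623, 0.302 and 0.932 normalized CPM at d6, 0.349, 0.542, 0.818, 0.327 and 0.283 at d10 and 1.08, 1.84 and 1.39 at d14 and was called from d10 to d14 (1.64 ± 0.37 SE, adjusted p = 0.017) and from d6 to d14 (1.23 ± 0.40 SE, adjusted p = 0.03). Its partners Col9a1 and Col9a2 had at most 2 and 4 counts in any tumor, and 234 bases of Col9a3 overlap Tcfl5 on the other strand. The chondrocyte list, whose sum was Acan and Sox9, came to 115 to 141 normalized CPM at d6, 173 to 290 at d10 and 215 to 263 at d14, and its part in the type IX and XI values was not tested. The calls were lost without d14 replicate 2 (1.41 and 1.01) and, against d6, without d6 replicate 1 (1.23) or 2 (0.89). Col20a1, a FACIT, measured 0.556, 0.443 and 1.15 normalized CPM at d6, 1.12, 1.49, 2.06, 0.619 and 0.805 at d10 and 1.95, 4.29 and 2.87 at d14, with calls from d10 to d14 (1.32 ± 0.39 SE, adjusted p = 0.043) and from d6 to d14 (2.09 ± 0.42 SE, adjusted p = 0.0031). The former was lost without any one of d10 replicates 1, 2, 4 and 5 or of the d14 tumors (0.98 to 1.56), and with d10 replicates 1 to 3 only (0.97). Col26a1, a secreted collagen with few counts, had 3, 4 and 8 counts at d6, 12, 11, 3, 46 and 10 at d10, 1, 2 and 6 at d14, 3, 2 and 0 in treated d10 and 7, 7 and 1 in treated d14 tumors. It was called lower from d10 to d14 (-2.68 ± 0.78 SE, adjusted p = 0.039), and leaving out d10 replicate 1 or 2 or any d14 tumor ended that call (-3.43 to -2.35). Col14a1, a FACIT of fibril surfaces, measured 4.83, 3.31 and 4.80 normalized CPM at d6, 2.69, 3.05, 3.5, 5.41 and 2.06 at d10 and 2.29, 2.08 and 2.41 at d14 and passed lower from d6 to d14 (-0.92 ± 0.21 SE, adjusted p = 0.0061).

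The 3 members tested but not called anywhere and not yet named were Col7a1, the anchoring fibril chain, and the transmembrane chains Col17a1 and Col23a1. Col7a1 passed from d6 to d14 (0.88 ± 0.22 SE, adjusted p = 0.0096), and Col17a1 (0.46 ± 0.35 SE, adjusted p = 0.29) and Col23a1 (0.11 ± 0.36 SE, adjusted p = 0.82) did not.

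Of the calls named so far, Col12a1, Col13a1, Col16a1, Col4a3 and Col4a4 from d6 to d10 held when each of 8 libraries was left out in turn. From d6 to d14, 7 of 10 calls held over 6 such fits. From d10 to d14 only that of Col4a3 did so over 8. The number of members called there was 4 without d10 replicate 1 (4.63% of all genes), 3 without d10 replicate 2 (4.51%), 1 without d14 replicate 2 (1.56%) and 3 without d14 replicate 3 (6.58%), against 7 with all tumors (7.23%).

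**Figure D4:**
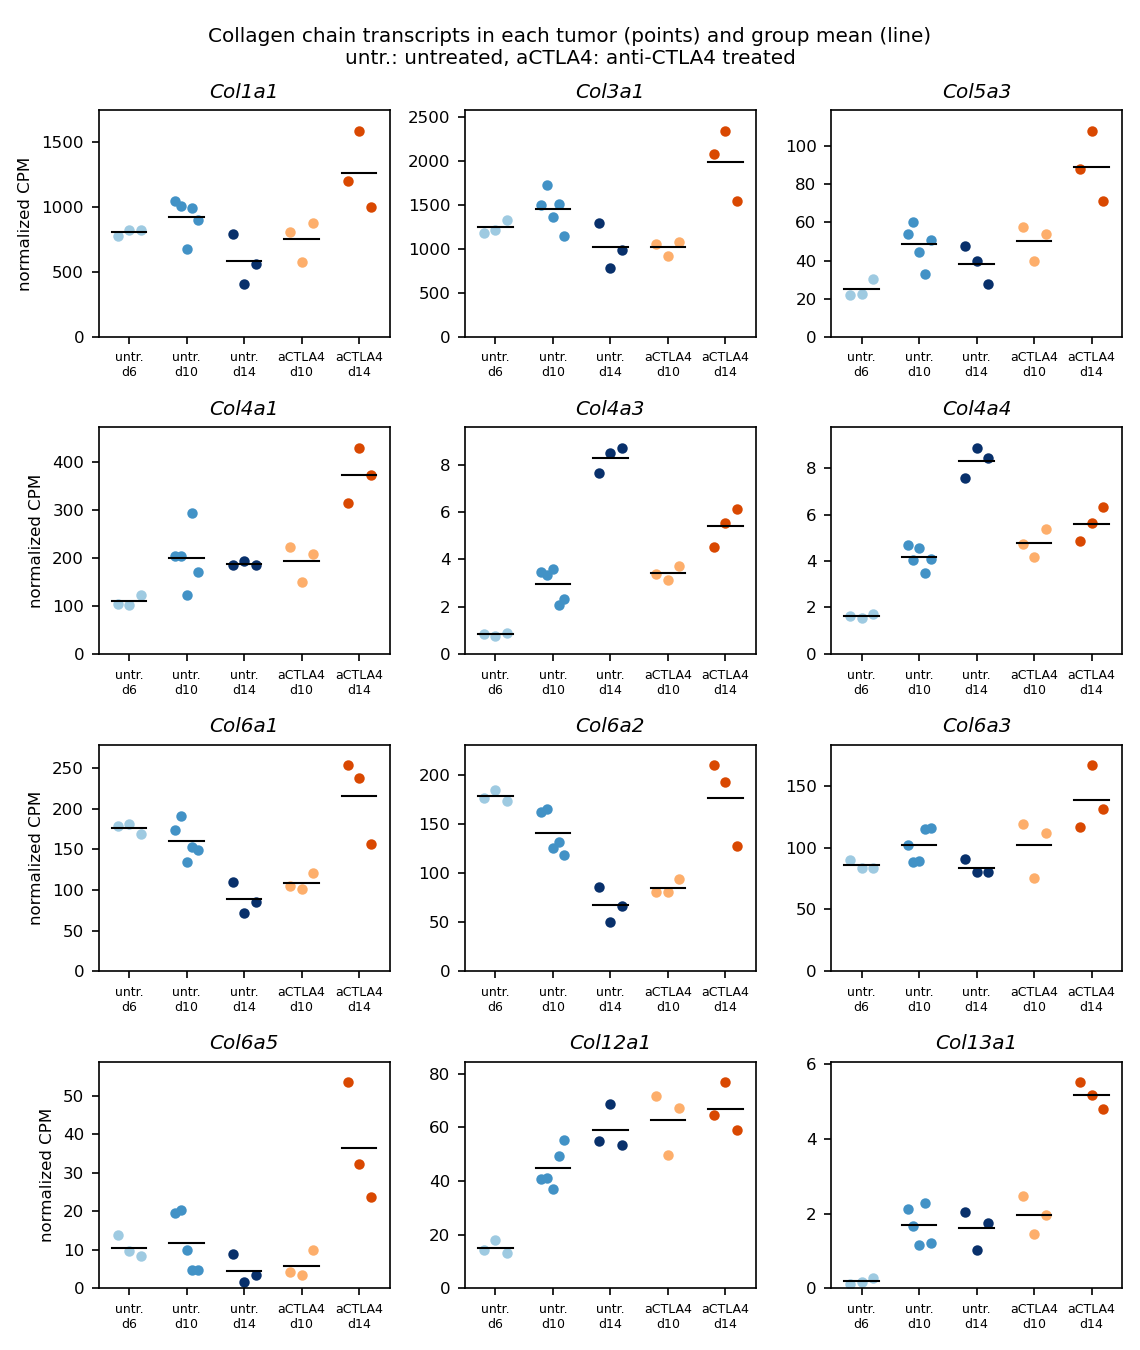
Normalized CPM of 12 collagen chain genes in each tumor, with one point per tumor, a line at the group mean, every axis starting at 0, and the groups in the order untreated d6, d10 and d14, then anti-CTLA4 d10 and d14. Col1a1, Col3a1, Col4a1 and Col6a5 are higher in all treated d14 tumors than in all untreated d14 tumors, whereas Col4a3 and Col4a4 are lower.

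The second question was whether collagen chain transcripts differ in tumors of anti-CTLA4 treated mice. At d10 no member was called by edgeR among 35 tested, and none passed the adjusted p alone, against 0.0174% of all genes called (3 of 17258, all higher). The median log2 fold change of the members was -0.11, and 8 had an unadjusted p below 0.05, compared with 13.5% of all genes. DESeq2 called 3 of them lower, Col14a1 (-1.14), Col24a1 (-1.58) and Col26a1 (-3.35). It called 244 of all genes, 70 higher and 174 lower. Against untreated d10 replicates 1 to 3 only, edgeR called 6.79% of all genes and 3 members, Col14a1 (-1.01), Col24a1 (-1.83) and Col6a5 (-1.49), all lower. Against replicates 4 and 5 only it called no member and 0.561% of all genes. There 16 members had an unadjusted p below 0.05, and the share of all genes at that level was not counted. Without untreated d10 replicate 5 it called only Col24a1 (-1.78), against 0.668% of all genes. The untreated d10 tumors are those of the time comparisons above.

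Col14a1 measured 1.81, 1.14 and 1.58 normalized CPM in the treated d10 tumors, below all untreated d10 tumors, with a log2 difference of -1.14 ± 0.31 (SE, adjusted p = 0.23). Col24a1, a fibrillar collagen of developing bone, measured 0.406, 0.248 and 0.304 (-1.59 ± 0.39 SE, adjusted p = 0.21), and untreated d10 replicate 5 lay within that range. Col6a1, at 105, 101 and 121, and Col6a2, at 80.8, 80.4 and 93.7, also lay below all 5 untreated d10 tumors, with values of -0.56 ± 0.13 (SE, adjusted p = 0.19) and -0.73 ± 0.13 (SE, adjusted p = 0.13). The same held for Col3a1, at 1059, 923 and 1076 (-0.51 ± 0.13 SE, adjusted p = 0.23). Col1a1 (805, 578 and 876) and Col4a1 (224, 149 and 209) overlapped the untreated d10 tumors. Col12a1 measured 71.8, 49.6 and 67.2 (0.49 ± 0.16 SE, adjusted p = 0.28), and overlapped the untreated d10 tumors. None of these differences passed edgeR's test, and the share of all genes that separate without overlap at d10 was not counted. In treated d10 tumors the markers of fibroblasts and pericytes summed to 281 to 342 normalized CPM, those of adipocytes to 19.3 to 22.7 against 36.3 to 76.7 in untreated d10 tumors, those of endothelium to 79.7 to 108 and those of leukocytes to 546 to 658, and their part in these values was not tested.

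At d14, 14 of the 34 members tested were called, all higher in treated tumors, against 11.5% of all genes called and 9.07% called higher. Without the fold limit 21 members passed higher and 3 lower, against 17.7% and 14.8% of all genes, and the median log2 fold change was 0.95, compared with 0.00 over all genes. By class, 8 of 9 fibrillar, 5 of 6 type VI, 3 of 7 basement membrane and 3 of 5 FACIT members tested passed higher, and 2 basement membrane members and Col8a1 passed lower. With the same tumors in view, the summed markers of fibroblasts and pericytes were 390 to 492 normalized CPM in treated and 185 to 253 in untreated d14 tumors, those of leukocytes 834 to 1040 and 299 to 563, those of endothelium 153 to 186 and 96.6 to 117, those of mesothelium 1890 to 2100 and 2770 to 2840, and those of adipocytes 23.6 to 46.5 and 15.4 to 28.1. The fibroblast and pericyte sum leaned on Thy1 and is not a measure of fibroblast number. The mesothelial sum was set mainly by Krt8, Krt18, Krt19 and Msln. Its list went both ways, with 2 of 8 markers tested passing higher and 3 lower. The part of all these markers in the collagen values was not tested. The untreated d14 tumors are those of the time comparisons. Treated replicate 2, with pancreas markers at 3.28 in sum, had the highest level of Col1a1, Col1a2, Col3a1 and Col4a1. Treated replicate 1, with those markers at 1950, had the highest level of Col6a1, Col6a2, Col6a5, Col6a6, Col13a1 and Col14a1. The part of pancreas tissue in these values was not tested. With replicate 2 alone against the untreated d14 tumors, the median log2 fold change over 35 members was 1.13, with 30 above 0. That fit takes the lone tumor to vary like the others.

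**Figure D5:**
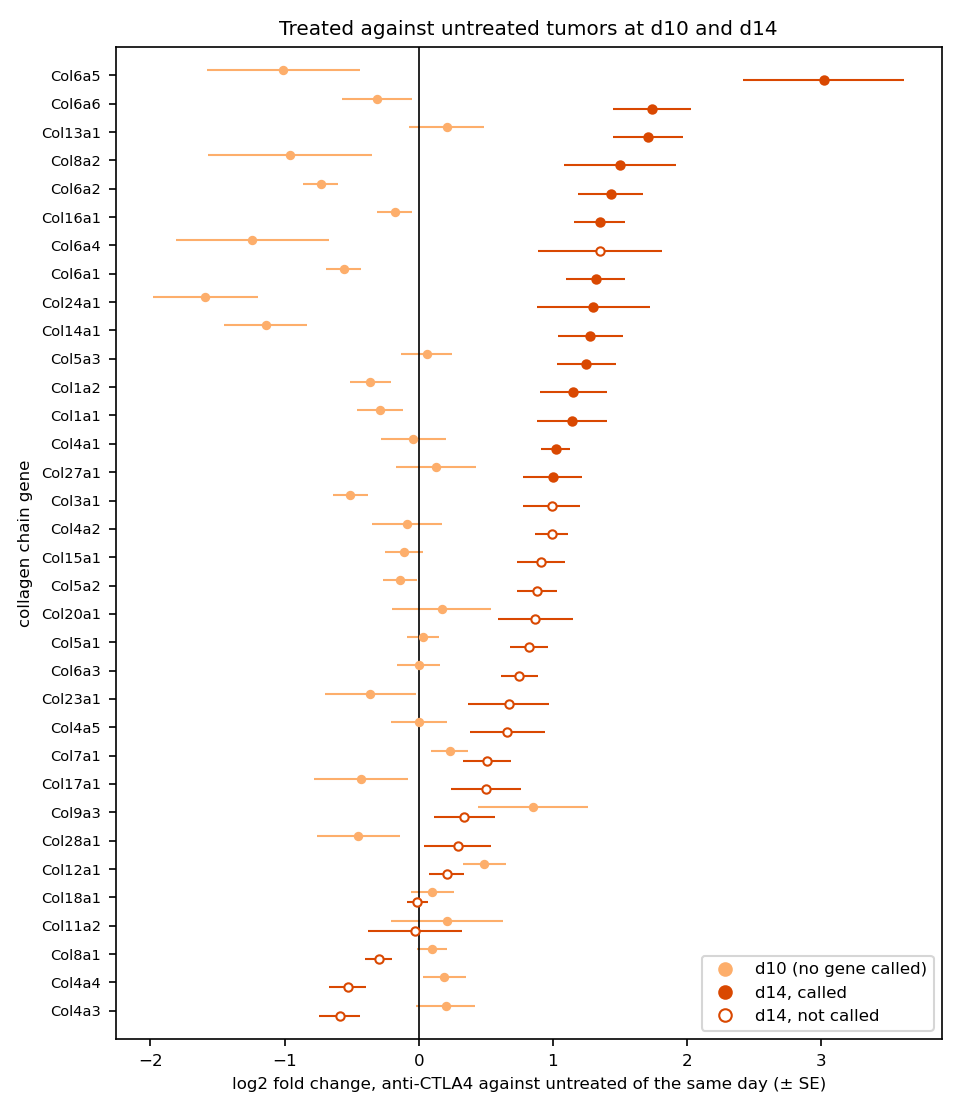
Log2 fold change with its standard error (bars) of anti-CTLA4 treated against untreated tumors for 34 members, at d10 (light) and d14 (dark, filled where called), ordered by the d14 value. At d14 the values run from -0.59 for Col4a3 to 3.02 for Col6a5, and at d10 no member was called.

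Of the 9 fibrillar chains tested 8 rose, and only Col11a2 did not pass. Col1a1 measured 1196, 1583 and 1002 normalized CPM in the treated d14 tumors, all above the 3 untreated d14 tumors, and its log2 fold change was 1.14 ± 0.26 (SE, adjusted p = 0.016). Col1a2 measured 1166, 1313 and 863 normalized CPM in the treated d14 tumors (1.15 ± 0.25 SE, adjusted p = 0.014), and Col3a1 2075, 2344 and 1551 normalized CPM in the treated d14 tumors (0.99 ± 0.21 SE, adjusted p = 0.013), just under the fold limit. The call of Col1a1 was lost without treated replicate 2 (0.97) or untreated d14 replicate 2 (0.92), and that of Col1a2 without the latter (0.92). Col3a1 was called without treated replicate 3 (1.19) or untreated d14 replicate 1 (1.2), and with protein coding genes only or genes of at least 10 counts in every library (1.01 in both) or library sizes without TMM (1.0). Within type V, Col5a3 measured 88.0, 108 and 71.0 normalized CPM in the treated d14 tumors and was called (1.25 ± 0.22 SE, adjusted p = 0.008), while Col5a1 (0.82 ± 0.14 SE, adjusted p = 0.0075) and Col5a2 (0.88 ± 0.15 SE, adjusted p = 0.0069) passed below the fold limit.

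Of the rarer fibrillar chains, Col24a1 measured 3.36, 3.42 and 2.81 in the treated d14 tumors and Col27a1, a collagen of growth plate cartilage, 4.89, 5.91 and 3.96. Both were called, at 1.30 ± 0.42 (SE, adjusted p = 0.049) and 1.0 ± 0.22 (SE, adjusted p = 0.013). Col24a1 lost its call without any treated tumor or without untreated d14 replicate 1 or 2 (0.98 to 1.43), and Col27a1 without treated replicate 2 (0.88) or untreated replicate 1 (0.92) or 3 (0.95). In a fit of all 5 groups neither was called (adjusted p = 0.074 for Col24a1 and log2 0.96 for Col27a1). Col27a1 also stood at the fold limit with DESeq2 and with all genes of at least 1 count, and was not called there. Col11a2, at 2.33, 2.74 and 2.94, overlapped the untreated tumors (log2 -0.03).

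The 6 type VI chains were higher in every treated d14 tumor than in every untreated d14 tumor, and 5 of them passed, against 17.7% of all genes. The share of all genes that separate in this way was not counted, and 45.4% of them had an unadjusted p below 0.05. Col6a1 measured 254, 238 and 157 normalized CPM in the treated d14 tumors and Col6a2 209.9, 193 and 127, with log2 fold changes of 1.32 ± 0.22 (SE, adjusted p = 0.0068) and 1.43 ± 0.24 (SE, adjusted p = 0.0072). For both, treated replicates 1 and 2 lay above all d6 tumors and replicate 3 below them. Col6a5 measured 53.5, 32.4 and 23.7 normalized CPM in the treated d14 tumors and had the largest value of the members at d14 (3.02 ± 0.60 SE, adjusted p = 0.011). Col6a6 measured 24.7, 23.2 and 16.6 (1.74 ± 0.29 SE, adjusted p = 0.0071), and Col6a3 117, 167 and 131, which passed under the fold limit (0.75 ± 0.14 SE, adjusted p = 0.0083). Col6a4, at 0.571, 0.596 and 0.288, did not pass (1.35 ± 0.46 SE, adjusted p = 0.055). Its lowest treated d14 tumor lay just above the highest untreated d14 tumor, at 0.282. Per kb, Col6a2 stood at 1.39 to 2.58 of Col6a3 in treated d14 tumors, above the 0.885 to 1.35 of the untreated ones.

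Basement membrane chains split into rising and falling members. Col4a1 measured 314, 429.6 and 374 normalized CPM in the treated d14 tumors and Col4a2 176, 242 and 219.8, and their log2 fold changes were 1.02 ± 0.11 (SE, adjusted p = 0.0041) and 0.99 ± 0.12 (SE, adjusted p = 0.0046). Without treated replicate 2 that of Col4a1 was 0.93 and in a fit of all 5 groups 0.98, neither of which was called, while Col4a2 was called without treated replicate 1 (1.13) or 3 (1.01) or untreated d14 replicate 1 (1.04), and with protein coding genes only, library sizes without TMM (1.0 in both) or genes of at least 10 counts in every library (1.01). Col15a1, at 159, 239 and 162, passed at 0.91 ± 0.18 (SE, adjusted p = 0.011). Col4a3 fell to 4.51, 5.53 and 6.15 and Col4a4 to 4.87, 5.65 and 6.31, below all untreated d14 tumors, with log2 values of -0.59 ± 0.15 (SE, adjusted p = 0.02) and -0.53 ± 0.14 (SE, adjusted p = 0.023). These values were still above those of every untreated d10 tumor. Col4a5, at 14.3, 13.3 and 10.1, and Col18a1, at 394, 392 and 452, did not pass (log2 0.66 and -0.01). As a share of the summed collagen level per kb, the basement membrane class held 17.8% to 24.0% in treated and 22.5% to 29.4% in untreated d14 tumors, and the fibrillar class 60.9% to 67.1% and 52.5% to 62.4%, so that the ranges of both classes overlapped.

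In the other classes, Col13a1 measured 5.52, 5.18 and 4.80 normalized CPM in the treated d14 tumors, above every other tumor of the study, and was called (1.71 ± 0.26 SE, adjusted p = 0.0059). Col16a1, at 45.0, 46.3 and 31.5, and Col14a1, at 7.28, 4.52 and 4.28, were called with no overlap (1.35 ± 0.19 SE, adjusted p = 0.0051, and 1.28 ± 0.24 SE, adjusted p = 0.0089). Col12a1, which had risen with time, measured 64.7, 76.8 and 59.0 and did not pass (0.21 ± 0.13 SE, adjusted p = 0.24). Col8a2 measured 1.13, 1.43 and 0.697 and was called (1.5 ± 0.42 SE, adjusted p = 0.031), a call lost without treated replicate 1 or 2 or untreated d14 replicate 1 or 2 (1.22 to 1.49), and in a fit of all 5 groups (adjusted p = 0.075). Its partner Col8a1 measured 172, 152 and 197 and fell by 0.30 on the log2 scale (-0.30 ± 0.10 SE, adjusted p = 0.048). Col20a1, at 5.01, 6.44 and 4.75, passed under the fold limit (0.87 ± 0.28 SE, adjusted p = 0.047), and Col9a3, at 1.66, 1.88 and 1.78, and Col28a1, at 2.45, 4.38 and 3.95, did not pass (log2 0.34 and 0.29). Over 6 fits with 1 library left out, 8 of the 14 calls held, those of Col13a1, Col14a1, Col16a1, Col5a3, Col6a1, Col6a2, Col6a5 and Col6a6. Without treated replicate 2 there were 9 calls (6.46% of all genes, against 11.5% with all tumors).

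The treatment difference at d14 was then compared with that at d10 in one fit of 4 groups. The difference between them was called for 17 of 35 members, all with a higher value at d14, against 11.8% of all genes and 9.67% called in that direction, with a median of 1.03. Of the type VI chains 5 were called, at log2 4.02 ± 0.93 (SE, adjusted p = 0.012) for Col6a5, 2.58 ± 0.79 (SE, adjusted p = 0.037) for Col6a4, 2.15 ± 0.28 (SE, adjusted p = 0.002) for Col6a2, 2.04 ± 0.43 (SE, adjusted p = 0.0075) for Col6a6 and 1.86 ± 0.26 (SE, adjusted p = 0.0024) for Col6a1. The treated d10 tumors measured 4.24, 3.43 and 10.1 normalized CPM for Col6a5, 0.167, 0.0580 and 0.130 for Col6a4 and 12.2, 8.36 and 14.3 for Col6a6. Col1a1, Col1a2 and Col3a1 gave 1.42 ± 0.32 (SE, adjusted p = 0.011), 1.5 ± 0.30 (SE, adjusted p = 0.0063) and 1.49 ± 0.26 (SE, adjusted p = 0.004), and the treated d10 level of Col1a2 was 652, 579.5 and 736. Col24a1 (2.87), Col14a1 (2.41), Col16a1 (1.52), Col13a1 (1.49), Col5a3 (1.18), Col4a2 (1.07), Col4a1 (1.04), Col15a1 (1.01) and Col5a2 (1.0) made up the rest.

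In treated d10 tumors Col16a1 measured 18.6, 16.0 and 22.0, Col13a1 2.46, 1.45 and 1.96, Col5a3 57.7, 39.7 and 54.0 and Col15a1 116, 86.4 and 115 normalized CPM, all overlapping the untreated d10 tumors. Col4a2, at 140.2, 91.1 and 135, and Col5a2, at 178, 144 and 171, did so as well. Of the 17 calls, 10 held when each of 14 libraries was left out, those of Col14a1, Col16a1, Col1a1, Col1a2, Col24a1, Col3a1, Col6a1, Col6a2, Col6a5 and Col6a6. There were 10 calls without treated d10 replicate 2 (7.63% of all genes), treated d14 replicate 2 (7.34%) or untreated d14 replicate 2 (6.91%), against 11.8% of all genes with all tumors. The calls of Col4a1 (0.86 to 1.17 over the 14 fits) and Col4a2 (0.88 to 1.21) were lost in 12 of those fits each, without any treated tumor, any untreated d14 tumor or untreated d10 replicate 1, 2 or 4. Col13a1 lost its call without treated d10 replicate 2 or 3, treated d14 replicate 1 or 2 or untreated d14 replicate 2 (1.24 to 1.49). For Col6a4 this was so without any treated d10 tumor, treated d14 replicate 1 or 2 or untreated d14 replicate 1 or 2 (2.23 to 2.90), and for Col5a3 without treated d10 replicate 2, treated d14 replicate 1 or 2 or untreated d14 replicate 2 or 3 (0.96 to 1.18). Col15a1 fell under the fold limit without treated d10 replicate 2, treated d14 replicate 2, untreated d10 replicate 1, 2 or 4 or untreated d14 replicate 2 or 3 (0.77 to 0.98), and Col5a2 without the same tumors other than untreated d10 replicate 4 (0.84 to 0.98). Both also fell under the limit with DESeq2 (0.98 each), a fit of all 5 groups (0.99 and 0.98), all genes of at least 1 count (0.97 and 0.96) and protein coding genes only (0.99 and 0.98). Col15a1 did so with d10 replicates 1 to 3 only (0.99), and Col5a2 with d10 replicates 4 and 5 only (0.90). With d10 replicates 4 and 5 only the call of Col5a3 was lost (adjusted p = 0.059), and with replicates 1 to 3 only those of Col4a1 (0.87) and Col4a2 (0.86).

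The proteins that make, bind or hold collagen were taken as 5 lists. Of the 20 genes for folding and modification of collagen in the endoplasmic reticulum, 2 passed higher and 8 lower from d6 to d14, against 25.5% and 26.0% of all genes, and 7 passed higher and 2 lower with treatment at d14, against 17.7% and 14.8%. P4ha3, a prolyl hydroxylase subunit, rose from d6 to d10 (1.62 ± 0.29 SE, adjusted p = 0.0052) and from d10 to d14 (1.34 ± 0.25 SE, adjusted p = 0.0095), and was lower in treated d14 tumors (-1.32 ± 0.16 SE, adjusted p = 0.0046). Serpinh1, the collagen chaperone HSP47, fell from d6 to d14 (-1.15 ± 0.09 SE, adjusted p = 5e-05). Plod2, a lysyl hydroxylase (1.03), and the prolyl isomerase Fkbp14 (1.01) differed in treatment effect between the days, as did P4ha3 (-1.66).

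Among the 14 genes that process and crosslink procollagen, 13 were tested, and 5 passed higher and 3 lower from d6 to d14 (25.5% and 26.0% of all genes) and 9 higher and 1 lower with treatment at d14 (17.7% and 14.8%). The 3 lower ones are a share near that of all genes. Lox, a lysyl oxidase that starts crosslinks, rose from d6 to d10 (1.08 ± 0.15 SE, adjusted p = 0.0013), whereas Loxl1 fell from d10 to d14 (-1.05 ± 0.23 SE, adjusted p = 0.015) and was higher in treated d14 tumors (1.35 ± 0.23 SE, adjusted p = 0.0076). Of the proteinases that cut the procollagen ends, Adamts14 rose from d6 to d14 (1.48 ± 0.16 SE, adjusted p = 0.00016), Adamts3 from d6 to d10 (1.67 ± 0.42 SE, adjusted p = 0.025), and Adamts2 (1.04 ± 0.15 SE, adjusted p = 0.0058), Adamts3 (1.29 ± 0.34 SE, adjusted p = 0.026) and Tll1 (1.29 ± 0.31 SE, adjusted p = 0.019) were higher with treatment. Loxl4 also rose from d6 to d14 (1.05 ± 0.11 SE, adjusted p = 0.00014), and the treatment effect on Loxl2 differed between the days (1.29).

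Of 12 proteoglycans and glycoproteins of fibrils, 11 passed higher and none lower with treatment at d14 (17.7% and 14.8% of all genes), and 5 were called higher (9.07% of all genes), among them Ogn (2.0 ± 0.40 SE, adjusted p = 0.011), Dcn (1.30 ± 0.37 SE, adjusted p = 0.033), Lum (1.23 ± 0.21 SE, adjusted p = 0.0077) and Tnc (1.05 ± 0.19 SE, adjusted p = 0.008). From d6 to d14, 2 of 11 tested passed higher and 2 lower, both shares below the 25.5% and 26.0% of all genes. Tnc, the adhesion-modulating tenascin C, rose (1.99 ± 0.13 SE, adjusted p = 2.9e-05), while the fibril proteins Postn (-2.15 ± 0.11 SE, adjusted p = 1.1e-05) and Lum (-1.02 ± 0.25 SE, adjusted p = 0.0086) fell. The treatment effect of Bgn (1.54), Sparc (1.28) and Prelp (1.25) was higher at d14 than at d10. Of 10 collagen receptors and uptake genes, 5 of 9 tested passed higher and 1 lower from d6 to d14 (25.5% and 26.0% of all genes), and 3 of 10 passed higher with treatment at d14 (17.7%). Mrc2, an endocytic collagen receptor, rose from d6 to d10 (1.28 ± 0.21 SE, adjusted p = 0.0038) and was higher with treatment (1.26 ± 0.16 SE, adjusted p = 0.0049), as was the integrin subunit Itga1 (1.11 ± 0.15 SE, adjusted p = 0.0051), and Itga11 rose from d6 to d14 (1.05 ± 0.35 SE, adjusted p = 0.03). Lair1, an inhibitory collagen receptor of leukocytes, differed in treatment effect between the days (1.05).

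Of 15 laminin and other basement membrane partners, 9 passed higher and none lower from d6 to d14 (25.5% and 26.0% of all genes). Lamc3 rose by 3.85 ± 0.37 (SE, adjusted p = 9.2e-05), Lama5 by 1.49 ± 0.10 (SE, adjusted p = 2.6e-05), Hspg2, the proteoglycan perlecan, by 1.04 ± 0.11 (SE, adjusted p = 0.00014), and Lama3 by 1.02 ± 0.12 (SE, adjusted p = 0.00025). With treatment at d14, 5 passed higher and 2 lower (17.7% and 14.8% of all genes), the latter a share near the background, and the nidogen Nid2 was called (1.05 ± 0.13 SE, adjusted p = 0.0049). The treatment effect of Nid2 (1.36) and Nid1 (1.04) was higher and that of Lama3 (-1.12) lower at d14 than at d10. At d10 no gene of the 5 lists passed with treatment by edgeR. Of the 12 proteoglycans and glycoproteins of fibrils, 8 had an unadjusted p below 0.05, against 13.5% of all genes. The median log2 difference of that list was -0.52, with 3 genes above 0. In each of the other lists at most 2 genes had an unadjusted p below 0.05.

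Genes whose level followed a collagen chain most closely were sought among 9721 genes averaging 10 normalized CPM or more, by Pearson correlation of log2 levels over the 17 tumors. These tumors share groups and treatment, so the values only describe likeness. For Col1a1 they were Col1a2 (r = 0.97), Itga9 (0.92), Col3a1 (0.90), Chst15 (0.89) and Bgn (0.89). For Col4a1 they were Col4a2 (0.99), the semaphorin receptor gene Plxnd1 (0.95), Col15a1 (0.95), Slit3 (0.94) and Plpp3 (0.93).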

How the data were processed

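RNA from 17 AB12 tumors, 1 per mouse and grouped by the sample labels, was sequenced paired-end after KAPA RNA HyperPrep library preparation. The authors aligned reads to GRCm38 with TopHat2 2.0.14 and counted uniquely mapped reads with HTSeq on Gencode vM21 genes. The authors deposited these whole-number counts without normalization, with totals of 46371577 to 96759833 per library. Instrument and sequencing project per library and the strand setting are not given in the sources used here.

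Each comparison was fitted in R 4.3.3 with edgeR 4.0.16 (filterByExpr, TMM, quasi-likelihood test), using only the groups compared and all genes passing the filter. P-values were adjusted by Benjamini-Hochberg over all genes tested. A gene passed when the adjusted value was under 0.05, and was called when the log2 fold change also exceeded 1 in size. Standard errors were derived from the log2 fold change and the F statistic. The fits were tested on simulated data. Replicates are separate mice, and no pair of libraries agreed within sampling noise.

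Members, gene lists, alternatives and tests were chosen with earlier results of these data known. Values in every tumor are given for members called in any comparison and for Col1a1, Col1a2, Col3a1, Col4a1, Col4a2, Col6a1, Col6a2 and Col6a3. Listed partner genes are named when called and averaging 1 normalized CPM or more, at most 6 per list and comparison. Promoters are from RefSeq, gene positions from Gencode vM21. Alternatives were DESeq2 1.42.0, library size without TMM, other filters on low counts, protein coding genes only, all 5 groups in one fit, untreated d10 replicates 1 to 3 or 4 and 5 only, each replicate left out, and the replicate number as a block. Coding length and the fit with treated d14 replicate 2 alone were added after the data were seen.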

Additional observations from a re-analysis of the deposited data

Results flagged for a closer look

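In 29 named members, the highest or lowest of the 5 untreated d10 tumors was compared with the others by Dixon's ratio, which chance alone passes in about 1 of 20 groups. Replicate 4 stood above the other d10 tumors for Col6a4, at 0.619 normalized CPM against 0.134 to 0.248, and for Col8a2, at 1.71 against 0.266 to 0.573. These values rest on 53 and 146 counts. Flags in 2 of 29 members are a share near the rate that chance alone passes.

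The anti-CTLA4 effect differed between d14 and d10 for 17 members by the interaction term of edgeR. The log2 difference was 4.02 for Col6a5, 2.87 for Col24a1, 2.58 for Col6a4, 2.41 for Col14a1, 2.15 for Col6a2, 2.04 for Col6a6 and 1.86 for Col6a1. It was 1.52 for Col16a1, 1.5 for Col1a2, 1.49 for Col13a1 and Col3a1, 1.42 for Col1a1, 1.18 for Col5a3, 1.07 for Col4a2, 1.04 for Col4a1, 1.01 for Col15a1 and 1.0 for Col5a2.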

How the results depend on the processing

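No called value changed sign under the alternatives run. The number of members called higher or lower with treatment at d10, 0 by edgeR, was 3 with DESeq2 (0.772% of all genes), 4 with the replicate block (7.01% of all genes called, against 0.0174%), 3 against untreated d10 replicates 1 to 3 (6.79%) and 0 to 1 with a library left out (at most 0.668%). The percentages that follow are also the shares of all genes called. With treatment at d14 the number of members called was 14 (11.5%), with 9 to 18 as single libraries were left out (6.32% to 15.2%). With treated replicate 2 alone against the untreated tumors, the median log2 fold change of 35 members was 1.13. That fit by edgeR takes the lone tumor to vary like the others. The difference between the days was called for 17 members (11.8%), and for 10 to 19 with a library left out (6.91% to 14.0%). Its median was 1.23 over 37 members with treated d14 replicate 2 alone. From d6 to d10 the count was 7 (7.45%), with 12 for untreated d10 replicates 4 and 5 only (16.7%) and 5 to 10 with a library left out (4.66% to 8.2%). From d10 to d14 it was 7 (7.23%), with 1 to 8 (1.56% to 8.75%). From d6 to d14 it was 10 (19.0%), with 8 to 15 (17.2% to 20.0%), and the median log2 fold change of the members tested was 0.58, with 0.47 to 0.79 as libraries were left out.

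Same-numbered tumors were from separate mice, and their deviations from the group means correlated between -0.305 and 0.263, so the numbers do not pair the samples. The replicate block gave 10 calls from d6 to d10 (8.29% of all genes called), 5 from d10 to d14 (9.0%), 13 from d6 to d14 (19.0%), 11 with treatment at d14 (9.42%) and 16 for the difference between the days (16.4%). It ended the calls of Col11a2 (1.1), Col20a1 (0.94) and Col26a1 (-1.95) from d10 to d14, of Col4a5 (0.95) from d6 to d14, of Col8a2 (1.54), Col24a1 (1.49) and Col27a1 (1.0) with treatment at d14, and of Col4a1 (0.85), Col4a2 (0.86) and Col15a1 (0.97) for the difference between the days. Depth limits the members with few counts, of which 3 had at most 3 counts in every library. The causes of these changes were not tested.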
